A study of Acipenser ruthenus with 35 samples.

Results

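Of 49027 transcripts of the sterlet (Acipenser ruthenus) oocyte, 78 were nearly absent from big oocytes. They were chosen on the non-normalised counts, as transcripts with at most 10 counts summed over the 17 libraries of big oocytes and at least 100 counts summed over the 18 libraries of small oocytes. Stage was therefore used to choose them, and the difference between stages is given here as a description without a test. In all, 28452 transcripts had at least 100 counts in small oocytes, so that the 78 were a small part of what small oocytes held, and 129 transcripts met the mirrored limits and were nearly absent from small oocytes.

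Single oocytes were cut across the animal-vegetal axis into 5 sections, lettered in order from A at the extreme animal end, through the central C, to E at the extreme vegetal end, and the total RNA of each section was depleted of ribosomal RNA and sequenced (TOMO-Seq). The big, advanced vitellogenic oocytes numbered 1, 2, 3 and 11 measured 2100, 1920, 2010 and 1920 µm. The small, early vitellogenic oocytes numbered 5, 6, 7 and 8 measured 1320, 1380, 1440 and 1500 µm. In other oocytes, fixed and cut to find the nucleus, the paper places it in the animal hemisphere at the big stage and centrally at the small stage. Oocyte 11 gave sections A and B and oocyte 7 gave sections C, D and E, which leaves 3 complete oocytes per stage. All big oocytes came from a single female and all small oocytes from another, more RNA entered each library of big oocytes, and oocytes were kept for sequencing by their marker gradient in RT-qPCR, so that stage, female, RNA input and library set cannot be told apart in any difference between the stages.

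Vitellogenesis is the phase in which the oocyte takes up yolk and grows, while the stock of maternal RNA that the embryo will use is kept in the cytoplasm. Some of this RNA is anchored at the animal or the vegetal end, and RNA of the germ plasm, for example, is a vegetal component in amphibians and sturgeons. The transcripts here are contigs of a transcriptome assembled with Trinity, in which an identifier that differs only after the letter i marks isoforms of 1 putative gene, a shared number after c a shared component, and a shared number after DN or GG a shared cluster. GG marks contigs assembled with the genome as a guide and DN those assembled without it. The 78 transcripts carry no gene name in the files or the reference used here, and no function is given to them.

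The libraries held 1816470 to 11348306 estimated counts in big oocytes (median 4455798) and 1653598 to 6817459 in small oocytes (median 4397616), so that depth overlapped between the stages. The germ cell marker dnd1, which encodes an RNA-binding protein of the germ plasm, had 22.3 to 736 CPM, counts per 1e6 counts of the library, in big and 86.8 to 243 CPM in small libraries and was present in all 35. No 2 libraries of the same stage and section agreed within sampling noise, with a chi-square per degree of freedom of 2.02 to 35.3 over 45 pairs. A CPM is a share of the library, so less of a transcript in the oocyte and more of all other RNA cannot be told apart.

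The 78 transcripts summed to 271 counts in big oocytes and 18255 counts in small oocytes. Their summed level was 1.39 to 9.91 CPM in the 17 big libraries (median 2.35) and 204 to 301 CPM in the 18 small libraries (median 242). In big oocytes 26 of the transcripts had 0 counts in every library, 18 had 1 to 3 counts and 34 had 4 to 10 counts. Of the 1326 values of these transcripts in big libraries, 166 were above 0, of which 106 were a single count, and the highest was 7 counts. The remainder was spread thinly over the big oocytes, with 74 counts in oocyte 1, 71 in oocyte 2, 90 in oocyte 3 and 36 in oocyte 11, and 2 of the transcripts had a count in all 4 of them. Oocyte 11, with 2 libraries, had the highest pooled level of the big oocytes at 6.19 CPM, against 2.14, 2.38 and 2.76 CPM in oocytes 1, 2 and 3. Its section A was the shallowest big library and held 9.91 CPM.

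For the 26 transcripts with 0 counts, a floor of 3 counts over all big libraries gave levels at least 46.9-fold to 1133-fold lower in big oocytes, with a median of 89.4-fold. For the other 52 the pooled level was 14.5-fold to 614-fold lower, with a median of 41.6-fold. The limits cut through a continuous range. At the upper limit in big oocytes 5 of the transcripts had exactly 10 counts, and 34 further transcripts with at least 100 counts in small oocytes had 11 to 20 counts in big oocytes, 3 of them exactly 11. At the lower limit in small oocytes 9 of the transcripts lay fewer than 10 counts above it, and 5 transcripts with 90 to 99 counts there also had at most 10 in big oocytes.

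**Figure D1:**
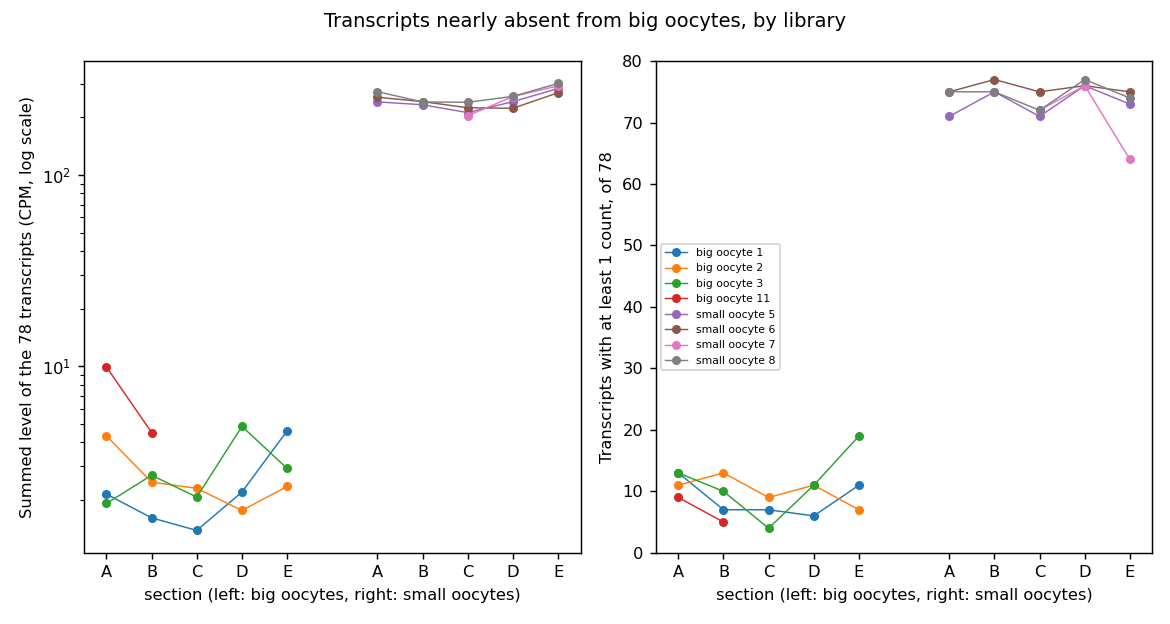
Summed level of the 78 transcripts in CPM (left, log scale) and number of them with at least 1 count (right) in each library, by section A to E, with big oocytes on the left of each panel and small oocytes on the right. Points are libraries, and lines join the sections of 1 oocyte. Big libraries lie between 1.39 and 9.91 CPM and small libraries between 204 and 301 CPM.

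In small oocytes the 78 transcripts were mostly low but regularly detected. They had 101 to 2440 counts summed over the small libraries (median 167.5), which is 1.37 to 33.1 CPM in the pooled libraries. Of the 78, 52 had a count in all 18 small libraries, 22 in 14 to 17 libraries and 4 in fewer. A small library held 64 to 77 of them (median 75), and a big library 4 to 19 (median 10). The rule, with at least 100 counts in small and at most 10 in big oocytes, largely fixed this difference in detection. Detection of other transcripts in the same range of counts was not computed, so these numbers and those by oocyte are a description. The lowest number in small oocytes, 64, was found in section E of oocyte 7, which was the shallowest of all libraries.

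No small oocyte stood apart in this respect. All 78 transcripts had counts in oocytes 5, 6 and 8, and 63, 72 and 68 of them, in that order, had a count in every section. In oocyte 7, with 3 sections, 77 transcripts had counts and 60 had a count in every section. The exception was TRINITY_GG_11156_c0_g1_i1_2, which had 0 counts in oocyte 7. The pooled level of the 78 transcripts was 241, 241, 245 and 261 CPM in oocytes 5, 6, 7 and 8. In big oocytes 26, 33, 35 and 13 of the transcripts had counts in oocytes 1, 2, 3 and 11.

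The 2 transcripts with the most counts in small oocytes among those with 0 counts in big oocytes were TRINITY_DN46069_c0_g2_i1_1, with 2440 counts, and TRINITY_GG_22195_c0_g1_i2_1, with 510 counts. In sections A to E TRINITY_DN46069_c0_g2_i1_1 had 39.5, 32.3, 20.7, 29.6 and 24.9 CPM in oocyte 5, 37.0, 39.0, 33.7, 29.6 and 41.2 CPM in oocyte 6 and 39.2, 29.8, 37.2, 31.5 and 29.1 CPM in oocyte 8. In oocyte 7 it had 34.5, 37.8 and 22.4 CPM in C, D and E. All 18 values lay between 20.7 and 41.2 CPM, and the ranges of the 5 sections overlapped. TRINITY_GG_22195_c0_g1_i2_1 averaged 6.80 ± 1.14 CPM in A, 6.81 ± 0.99 CPM in B (SD, n = 3 each), 6.05 ± 1.36 CPM in C, 6.83 ± 0.70 CPM in D and 7.71 ± 0.85 CPM in E (n = 4 each). Its dispersion index was the lowest of all 78 transcripts. This index, the chi-square against an equal level in all 18 libraries divided by its degrees of freedom, was 0.61, where 1 is the value of counting noise alone.

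The section profile within small oocytes was not used to choose the transcripts, and it was tested for all transcripts with a scaled total above 20 per complete oocyte, 77 of the 78 among them. The test was the quasi-likelihood F test of edgeR with the oocyte as a block, and p-values were adjusted over all 30277 transcripts tested, with a threshold of 0.1. Sections differed for 10 of the 77 (13.0%), against 15.2% of all transcripts tested. The power of this test rises with the count, and so does the share called. Among transcripts with 100 to under 200 counts in small oocytes it was 4 of 49 (8.16%) against 7.83% of all, with 200 to under 500 counts 6 of 24 (25%) against 10% of all, and with 500 counts or more 0 of 4 against 19.9% of all. The 6 include both contigs of cluster GG_21224, which can share reads and are not independent.

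The direction along the axis was read from 2 contrasts. The gradient is the mean of D and E minus the mean of A and B (log2), so that a positive value is vegetal, and the polar contrast sets both ends, A and E averaged, against C. Over the 77 transcripts the median gradient was 0.04, with quartiles of -0.24 and 0.35, beside a median of -0.01 and quartiles of -0.17 and 0.13 over all transcripts tested. The median polar contrast was 0.15, beside 0.01 over all. The gradient was vegetal for 3 of the 77 (3.90%), against 5.67% of all, and animal for 4 (5.19%), against 4.92% of all. Both poles were above the centre for 4 (5.19%), against 5.05% of all, and the centre was above the poles for 3 (3.90%), against 4.55% of all. These shares were close to those of all transcripts. Leaving out 1 oocyte gave 1 to 3 transcripts with the poles above the centre and 0 to 2 with the centre above the poles, the lowest of both without oocyte 8. The shares of all transcripts were then lower as well, at 3.09% to 3.90% and 2.68% to 3.45%. The section test or either contrast passed the threshold for 14 of the 77 (18.2%), against 19.3% of all, and for none of the other 63. Of the 77, 70 (90.9%) had a fitted gradient within 1 on the log2 scale, beside 96.1% of all transcripts. This share and the quartiles are not matched by count, and fitted gradients scatter more at low counts. Of the 77, 4 had 500 counts or more in small oocytes, against 17129 of the 30277.

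**Figure D2:**
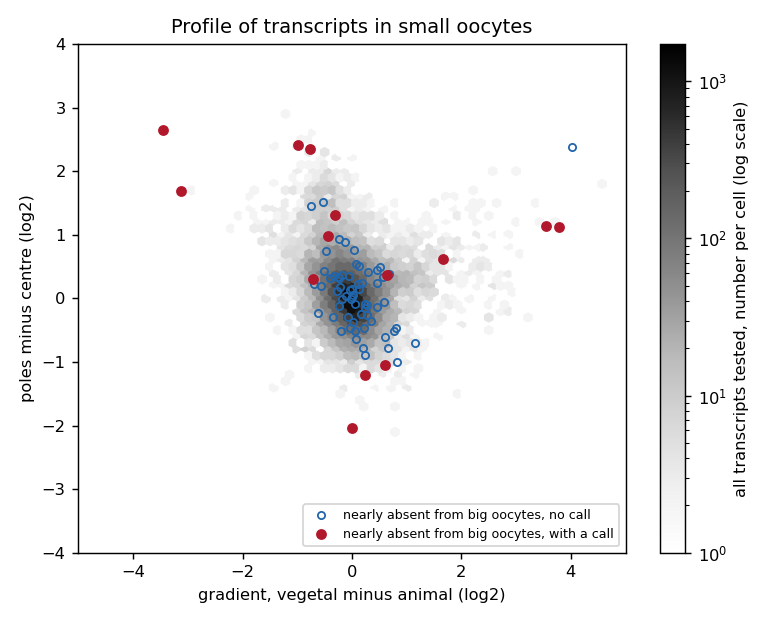
Polar contrast (poles minus centre, log2) against the gradient (vegetal minus animal, log2) in small oocytes. Grey cells give the number of all 30277 transcripts tested on a log scale, open circles the 63 of the 77 transcripts without a call, and filled circles the 14 with a call in the section test or either contrast. Most of the 77 lie within the dense centre, and a few lie at its edges.

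Among the 3 transcripts with a vegetal call, the steepest profiles belonged to a pair of contigs of 1 cluster. TRINITY_GG_21224_c1_g1_i1_1 had 2 counts in big and 458 in small oocytes, and TRINITY_GG_21224_c0_g1_i1_1 had 3 counts in big and 302 in small oocytes. In sections A to E TRINITY_GG_21224_c1_g1_i1_1 had 0.238, 1.07, 1.75, 5.72 and 32.5 CPM in oocyte 5, 1.04, 0.404, 1.46, 1.78 and 11.6 CPM in oocyte 6, and 0.404, 0.794, 2.34, 2.83 and 22.4 CPM in oocyte 8. In oocyte 7 it had 1.81, 6.93 and 46.6 CPM in C, D and E. Section E was above every other section in each oocyte, and the 4 values of E did not overlap with those of any other section. The gradient was 3.79 ± 0.31 (log2, SE, adjusted p = 9.73e-12, edgeR).

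TRINITY_GG_21224_c0_g1_i1_1 followed the same course, with 0.250 ± 0.218 CPM in A, 0.956 ± 0.309 CPM in B (SD, n = 3 each), 0.998 ± 0.615 CPM in C, 3.12 ± 1.5 CPM in D and 18.9 ± 12.7 CPM in E (n = 4 each). Its gradient was 3.54 ± 0.39 (log2, SE, edgeR adjusted p = 1.23e-08). The spread within E was wide for both contigs and lay between oocytes, with oocyte 7 the highest and oocyte 6 the lowest. Contigs of 1 cluster can share reads, so the pair, although each contig has its own call, is not a set of independent observations. The third vegetal transcript was TRINITY_GG_37331_c2_g1_i1_1, with 1.43 ± 0.42 CPM in A (n = 3) and 8.02 ± 4.32 CPM in E (n = 4) and a gradient of 1.67 ± 0.34 (log2, SE, edgeR adjusted p = 0.000611). In oocytes 5 and 7 it had 11.8 and 11.5 CPM in E, and in oocytes 6 and 8 it had 3.01 and 5.82 CPM.

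The pair of contigs made up part of the differences between sections in the summed level. All 78 transcripts summed to 256 ± 15.8 CPM in A, 238 ± 4.93 CPM in B (SD, n = 3 each), 220 ± 15.7 CPM in C, 245 ± 16.2 CPM in D and 286 ± 13.6 CPM in E (n = 4 each), and the ranges of C and E did not overlap. Without the pair the sum in E was 239 ± 23.9 CPM and that in C 217 ± 15.8 CPM, and the ranges of C and E overlapped. The sum in A, 255 ± 15.6 CPM without the pair, still did not overlap with that in C. The gap was narrow, with 241 CPM in the lowest library of A and 237 CPM in the highest of C. That lowest library, oocyte 5, held 11.0 and 8.34 CPM of 2 animal contigs, TRINITY_DN53901_c0_g5_i1_1 and TRINITY_DN53901_c0_g3_i1_1. The gap between A and C was narrower than the level of either contig in that library, so single contigs can close it. These 2 are not the only such contigs. TRINITY_GG_16638_c1_g1_i1_1, named after its values were seen, had 8.81 CPM there and 4.42 CPM in C of oocyte 8. The GG_21224 pair alone gave 47.2 ± 27.6 CPM in E and 2.84 ± 0.67 CPM in C. In big oocytes the GG_21224 pair gave at most 0.551 CPM in any library.

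TRINITY_DN26175_c0_g1_i1_1 was the 1 transcript that did not pass the filter on low values, and it was named for that reason after its values were seen. It had 104 counts in small oocytes, all of them in sections D and E. They were 7 counts in E of oocyte 5, 19 in E of oocyte 6, 23 in D and 23 in E of oocyte 7, and 3 in D and 29 in E of oocyte 8. Its 7 counts in big oocytes all came from section E of oocyte 1. Without the filter its gradient was 5.43 ± 1.05 (log2, SE, edgeR adjusted p = 0.000537), a value that depends on the prior count since A and B held no count.

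The steepest animal profiles belonged to TRINITY_DN53901_c0_g5_i1_1 and TRINITY_DN53901_c0_g3_i1_1, again a pair of contigs of 1 component. They had 5 and 7 counts in big oocytes and 124 and 116 counts in small oocytes. TRINITY_DN53901_c0_g5_i1_1 had 11.0, 4.15 and 8.08 CPM in section A of oocytes 5, 6 and 8, 2.36, 1.82 and 1.99 CPM in B, and at most 1.03 CPM in any library of C, D or E. Section A was above B in each of the 3 oocytes and B above all later sections. Its gradient was -3.46 ± 0.43 (log2, SE, edgeR adjusted p = 1.87e-07). TRINITY_DN53901_c0_g3_i1_1 had 7.16 ± 1.23 CPM in A and 1.5 ± 0.31 CPM in B (SD, n = 3 each), and 0.543 ± 0.429, 0.501 ± 0.461 and 0.409 ± 0.163 CPM in C, D and E (n = 4 each). Its gradient was -3.12 ± 0.45 (log2, SE, edgeR adjusted p = 3.02e-06).

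Another contig of this component, TRINITY_DN53901_c0_g4_i1_1, was abundant in both stages and was named after its values were seen. It had 19477 counts in big and 15385 counts in small oocytes. In big oocytes it averaged 307 ± 19.2 CPM in A (SD, n = 4) and 109 ± 6.99 CPM in E (n = 3). In small oocytes it averaged 463 ± 18.1 CPM in A (n = 3), 283 ± 21.2 CPM in B (n = 3), and 120 ± 12.7 CPM in E (n = 4), with a gradient of -1.48 ± 0.05 (log2, SE, edgeR adjusted p = 5.21e-22). The 3 contigs were thus highest in A of small oocytes, and the 2 low ones had nearly no counts in big oocytes, where the abundant one was also highest in A. The deposited counts divide reads that fit several contigs by estimate, and how many reads the contigs of this component share was not tested.

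The other 2 animal calls were weaker. TRINITY_GG_1004_c0_g1_i1_2 had a gradient of -0.98 ± 0.30 (log2, SE, edgeR adjusted p = 0.0340) and TRINITY_GG_114056_c0_g1_i1_1, with 0 counts in big oocytes, had -0.72 ± 0.26 (edgeR adjusted p = 0.0924). Without the oocyte as a block 2 animal calls were made in place of 4, against 5.33% of all transcripts in place of 4.92%.

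TRINITY_GG_1004_c0_g1_i1_2 was also the clearest transcript with both poles above the centre. In sections A to E it had 3.57, 3.00, 0.351, 1.32 and 1.04 CPM in oocyte 5, 15.2, 6.06, 1.26, 1.56 and 5.55 CPM in oocyte 6, and 10.5, 1.99, 2.08, 2.30 and 8.72 CPM in oocyte 8. In oocyte 7 it had 0.605, 0.224 and 1.21 CPM in C, D and E. Section A was the highest in each of the 3 oocytes that have it. E exceeded C in CPM in all 4 oocytes, but in oocytes 5 and 7 on very few counts. C and E held 1 and 3 counts in oocyte 5, where E lay below B and D, and 2 counts each in oocyte 7. The rise at E thus rests on oocytes 6 and 8. The polar contrast was 2.41 ± 0.43 (log2, SE, edgeR adjusted p = 0.000328).

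The larger polar contrast of TRINITY_DN53901_c0_g5_i1_1, 2.64 ± 0.97 (log2, SE, edgeR adjusted p = 0.0962), came from section A, since E averaged 0.144 ± 0.173 CPM and C 0.117 ± 0.137 CPM (SD, n = 4 each). This call was lost in 6 of 9 alternatives, with adjusted p-values from 0.106 to 0.469. The other 2 polar calls, TRINITY_GG_11156_c0_g1_i1_2 (2.35 ± 0.52, edgeR adjusted p = 0.00334) and TRINITY_GG_37901_c1_g1_i1_1 (1.31 ± 0.47, edgeR adjusted p = 0.0826), had 154 and 129 counts in small oocytes.

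Of the 3 transcripts with the centre above the poles, TRINITY_DN44888_c0_g2_i1_1 had the largest contrast. It had 0 counts in big and 103 counts in small oocytes. It had 0, 0.346 and 2.02 CPM in section A of oocytes 5, 6 and 8 and 0.346, 0.231, 1.21 and 0.447 CPM in E of oocytes 5, 6, 7 and 8, against 1.75, 2.51, 2.42 and 2.60 CPM in C of the same 4 oocytes. C exceeded both ends in oocytes 5, 6 and 8 and exceeded E in oocyte 7, which has no section A. Section A of oocyte 8 lay within the range of C. The polar contrast was -2.04 ± 0.54 (log2, SE, edgeR adjusted p = 0.0140), and without oocyte 6 the adjusted p was 0.149. Without oocyte 8 this transcript did not pass the filter and was not tested. TRINITY_GG_117436_c1_g2_i1_1 had 0.798 ± 0.344 CPM in A (SD, n = 3) and 1.62 ± 0.72 CPM in E (n = 4), against 3.07 ± 2.02 CPM in C (n = 4). Its contrast of -1.21 ± 0.45 (edgeR adjusted p = 0.0985) was lost in 7 of 9 alternatives, with adjusted p-values from 0.101 to 0.349. The third was TRINITY_GG_84635_c1_g1_i1_1, with a contrast of -1.04 ± 0.33 (edgeR adjusted p = 0.0481).

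**Figure D3:**
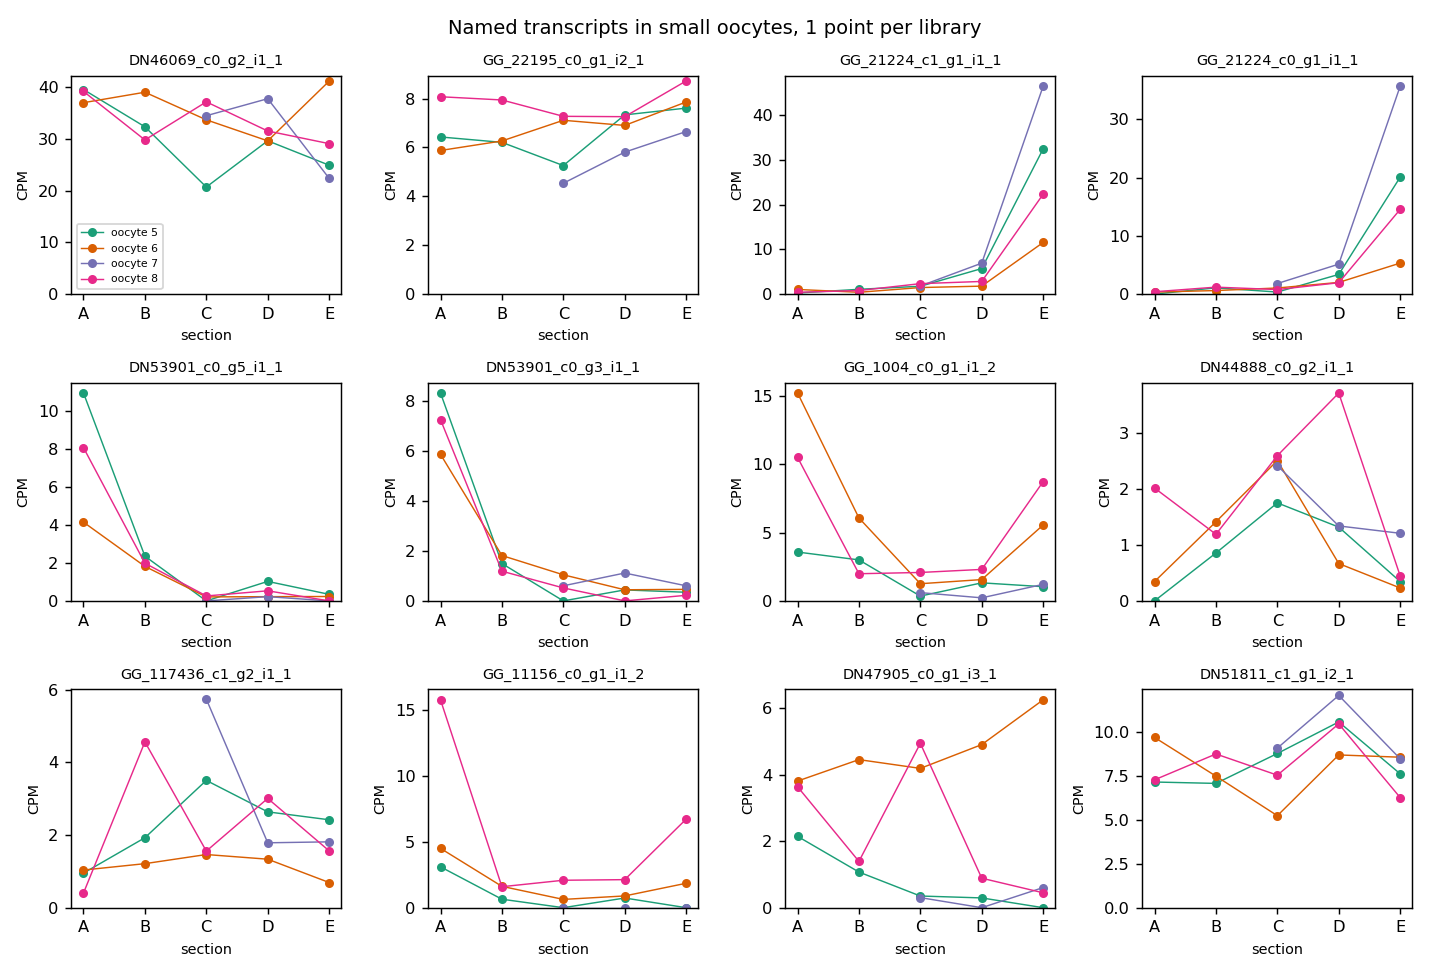
CPM of the named transcripts in sections A to E of the small oocytes 5, 6, 7 and 8, with 1 point per library and lines joining the sections of 1 oocyte. Each panel has its own scale from 0. TRINITY_GG_21224_c1_g1_i1_1 reaches 46.6 CPM in E of oocyte 7, TRINITY_DN53901_c0_g5_i1_1 reaches 11.0 CPM in A of oocyte 5, and TRINITY_DN46069_c0_g2_i1_1 stays between 20.7 and 41.2 CPM.

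The 4 small oocytes came from the same female, and differences between them were tested with the section as a term. Libraries of 1 oocyte share a cell, so this test describes these 4 cells. It passed the threshold for 5 of the 77 transcripts (6.49%), against 2.94% of all transcripts tested. Without oocyte 7 it passed for 3, against 1.37% of all. By counts in small oocytes the share was 2 of 49 (4.08%) against 1.16% of all at 100 to under 200 counts, 3 of 24 (12.5%) against 2.02% at 200 to under 500 counts, and 0 of 4 against 4% at 500 counts or more. The 5 transcripts were TRINITY_GG_11156_c0_g1_i1_2, TRINITY_DN47905_c0_g1_i3_1, TRINITY_GG_1004_c0_g1_i1_2 and both contigs of GG_21224, and 4 of these 5 also differed between sections. The matching share among all transcripts that differed between oocytes was not computed. Both contigs of GG_21224 are among the 4 and can share reads, so no link between the tests is read from this.

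TRINITY_GG_11156_c0_g1_i1_2 had 21, 36, 0 and 97 counts in oocytes 5, 6, 7 and 8 (edgeR adjusted p = 0.000245 over the oocytes). In section A it had 3.10, 4.49 and 15.8 CPM in oocytes 5, 6 and 8, and in E it had 0, 1.85, 0 and 6.71 CPM in oocytes 5, 6, 7 and 8. Oocyte 8 was the highest in both end sections. Without oocyte 8 the adjusted p was 0.170. Oocyte 7 gave no section A, where this transcript was highest in the other oocytes, but its sections C, D and E also held 0 counts.

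TRINITY_DN47905_c0_g1_i3_1 had 17, 102, 2 and 42 counts in oocytes 5, 6, 7 and 8 (edgeR adjusted p = 0.00827). It was evenly high in oocyte 6, at 3.80, 4.45, 4.18, 4.90 and 6.24 CPM in A to E. In oocyte 5 it had 2.14, 1.07, 0.351, 0.293 and 0 CPM in the same sections. Oocyte 8 held 3.63, 1.39, 4.94, 0.885 and 0.447 CPM, and oocyte 7 at most 0.605 CPM. Without oocyte 6 the adjusted p was 0.136. In big oocytes the transcript had 9 counts, 3 of them in E of oocyte 1 and 3 in E of oocyte 3. For both contigs of GG_21224, oocyte 7 was the highest, with 12.1 CPM pooled over its sections for TRINITY_GG_21224_c1_g1_i1_1, against 6.72, 3.27 and 6.05 CPM in oocytes 5, 6 and 8 (edgeR adjusted p = 0.00236). Oocyte 7 has no sections A and B, where this contig was low, but it was also the highest in D and E.

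Few of the transcripts followed the size of the oocyte, and the same was so for all transcripts tested. The mean level over sections C, D and E, which all 4 small oocytes have, fell at each step of size, 1320 to 1380, 1440 and 1500 µm, for 1 of the 77 transcripts (1.30%), beside 2.73% of all transcripts, and rose at each step for 2 (2.60%), beside 3.26% of all.

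**Figure D4:**
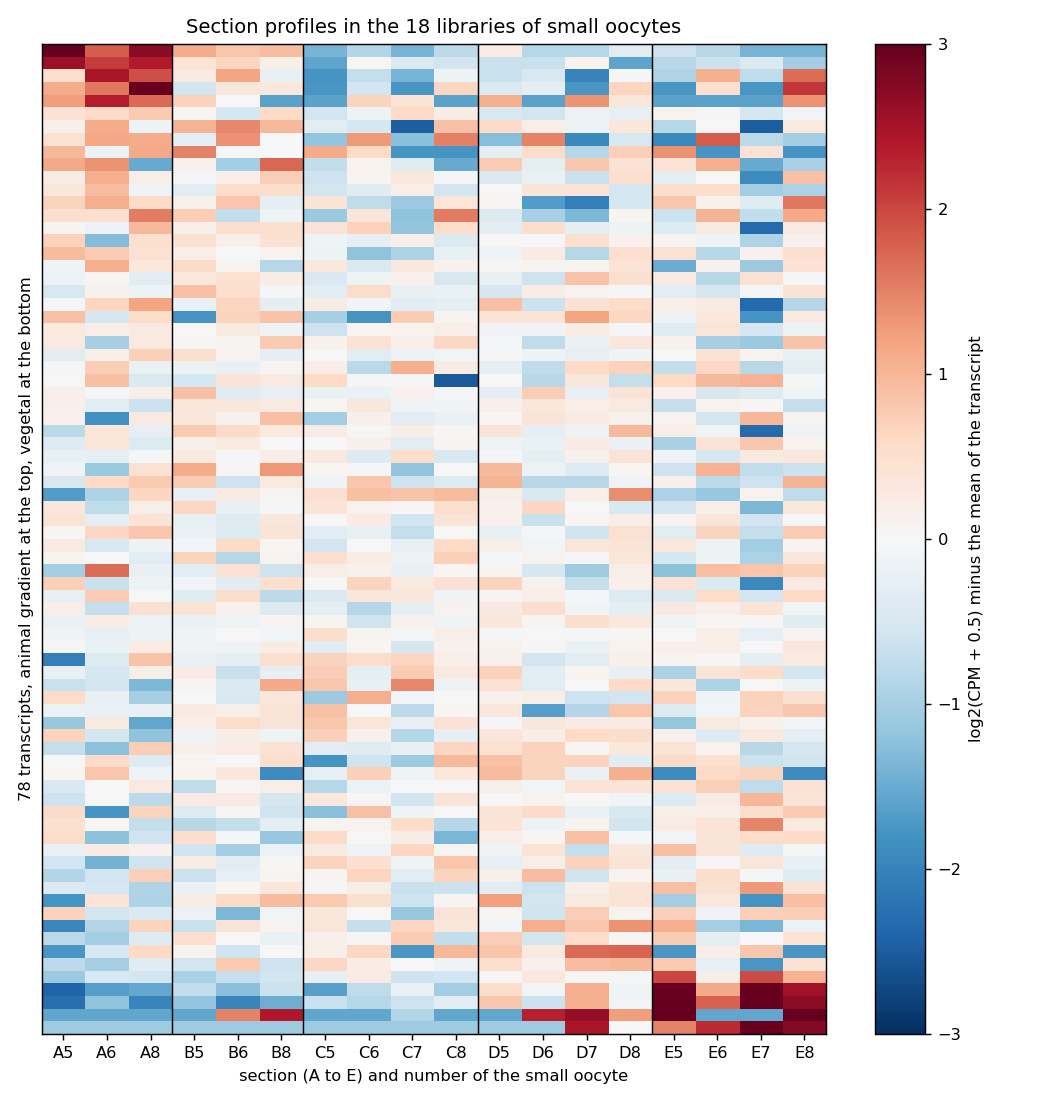
Section profiles of the 78 transcripts in the 18 libraries of small oocytes, with 1 row per transcript and 1 column per library, grouped by section A to E and numbered by oocyte. Colour gives log2(CPM + 0.5) minus the mean of the transcript, rows run from animal gradients at the top to vegetal gradients at the bottom, and the untested TRINITY_DN26175_c0_g1_i1_1 is the last row. The steepest rows are high in A at the top and mostly in E at the bottom. Single libraries of other sections also differ strongly, as in B and D of TRINITY_DN48291_c1_g1_i4_1.

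The dispersion index of the 78 transcripts over the small libraries had a median of 1.83 and an upper quartile of 3.43, beside 1.61 and 2.32 over 21192 transcripts in the same range of counts. It was under 2 for 41 of the 78 (52.6%), beside 66.1% of the 21192. The 21192 span 101 to 2440 counts and are not matched by count within that range, while the 78 had a median of 167.5. The index of an uneven transcript rises with its count, so the 2 sets are not alike in this respect. The index ran up to 68.0, the value of TRINITY_GG_21224_c1_g1_i1_1. A high index did not always come with a call. TRINITY_DN48291_c1_g1_i4_1, named after its values were seen, had 239 counts in small oocytes in 8 of the 18 libraries and 0 in the other 10, with an index of 26.5. Its counts were 46 in E of oocyte 5, 18 in B and 31 in D of oocyte 6, 1 in C and 39 in D of oocyte 7, and 37 in B, 17 in D and 50 in E of oocyte 8. Neither the section test (adjusted p = 0.493) nor the test between oocytes (adjusted p = 0.984, edgeR) passed the threshold. Its fitted gradient of 4.03 ± 2.32 (log2, SE) was the largest of all 77, but the adjusted p was 0.452 (edgeR).

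Of the 78 transcripts, 8 had another isoform of the same Trinity gene in the table (10.3%, beside 10.2% of the transcripts with at least 100 counts in small oocytes). Components were shared by 15 (19.2%, beside 23.3%) and clusters by 26 (33.3%, beside 36.7%). The genes of 6 of them, the components of 12 and the clusters of 19 held at least 100 counts in big oocytes. For these, what was nearly absent was the contig and not its whole gene or cluster. The matching share for other transcripts was not computed. Of the 28452 transcripts with at least 100 counts in small oocytes, 28374 had more than 10 counts in big oocytes, so most related contigs would be present there. None of the genes, components or clusters of the 78 also held a transcript of the 129 nearly absent from small oocytes. Those 129 are few among 49027 transcripts, and the share expected for other transcripts was not computed, so nothing is read from this. By assembly 43 of the 78 (55.1%) were genome-guided contigs, beside 34.8% of the transcripts with at least 100 counts in small oocytes. The identifier ended in 2 for 9 of them (11.5%), beside 3.47%.

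The most abundant transcript was of this kind. The gene of TRINITY_DN46069_c0_g2_i1_1 has a second isoform, TRINITY_DN46069_c0_g2_i2_1, with 3343 counts in big and 940 counts in small oocytes. The 2 isoforms together gave 36.5, 22.8, 35.3 and 43.5 CPM in the big oocytes 1, 2, 3 and 11, and 47.0, 46.7, 42.7 and 45.1 CPM in the small oocytes 5, 6, 7 and 8. Oocyte 11, with sections A and B alone, was the 1 big oocyte within the range of the small ones. In single libraries the gene ran from 10.3 to 71.3 CPM in big oocytes and from 36.9 to 61.0 CPM in small oocytes. The stages overlapped in section A alone. In B, C, D and E every big library was below every small library, a difference that was not tested. The isoform i1 held none of it in big libraries and 52.7% to 93.2% (median 69.7%) in small libraries. In big oocytes, where i1 has no profile, i2 averaged 61.0, 35.2, 21.1, 14.5 and 12.6 CPM in A to E. In small oocytes i2 averaged 18.7, 14.1, 12.6, 11.6 and 9.84 CPM in A to E, with a gradient of -0.60 ± 0.30 (log2, SE, edgeR adjusted p = 0.333), and i1 had a gradient of -0.22 ± 0.11 (edgeR adjusted p = 0.282).

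TRINITY_DN51811_c1_g1_i2_1 had 4 counts in big and 624 counts in small oocytes. In the 18 small libraries it had 5.23 to 12.1 CPM (median 8.51), and the section test gave an adjusted p of 0.448 (edgeR). The other isoforms, i1 and i3, held 6773 and 1820 counts in big oocytes and 3486 and 1021 counts in small oocytes. The gene summed to 72.7 to 97.3 CPM in big libraries and 64.9 to 74.2 CPM in small libraries. These ranges overlap only across sections. Within each section every big library was above every small library, a difference that was not tested. This isoform made up 7.46% to 18.3% (median 11.9%) of the gene in small libraries and 0.0465% of its pooled counts in big oocytes.

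TRINITY_DN48291_c1_g1_i4_1, the transcript of patchy detection, also belonged to a gene kept in both stages, with 12.9 to 30.2 CPM in big and 13.9 to 34.1 CPM in small libraries. The coefficient of variation over the small libraries was 153% for the isoform and 21.0% for the gene, and the dispersion index was 26.5 and 3.68. The gene was detected in every library where the isoform was at 0. Another isoform of it, i2, had 0, 4.01, 4.92 and 6.71 CPM in E of oocyte 5, D of oocytes 6 and 7 and E of oocyte 8. These libraries held i4, and the other small libraries had 8.47 to 22.9 CPM of i2. Among those others, B of oocyte 6, C of oocyte 7 and B and D of oocyte 8 also held i4. How reads were divided between the isoforms was not tested. The isoforms TRINITY_DN54022_c1_g2_i11_1 and TRINITY_DN54097_c0_g3_i1_1 made up a median of 7.33% and 6.14% of their genes in small libraries, and those genes had 16.1 to 25.9 and 9.11 to 23.0 CPM in big libraries.

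**Figure D5:**
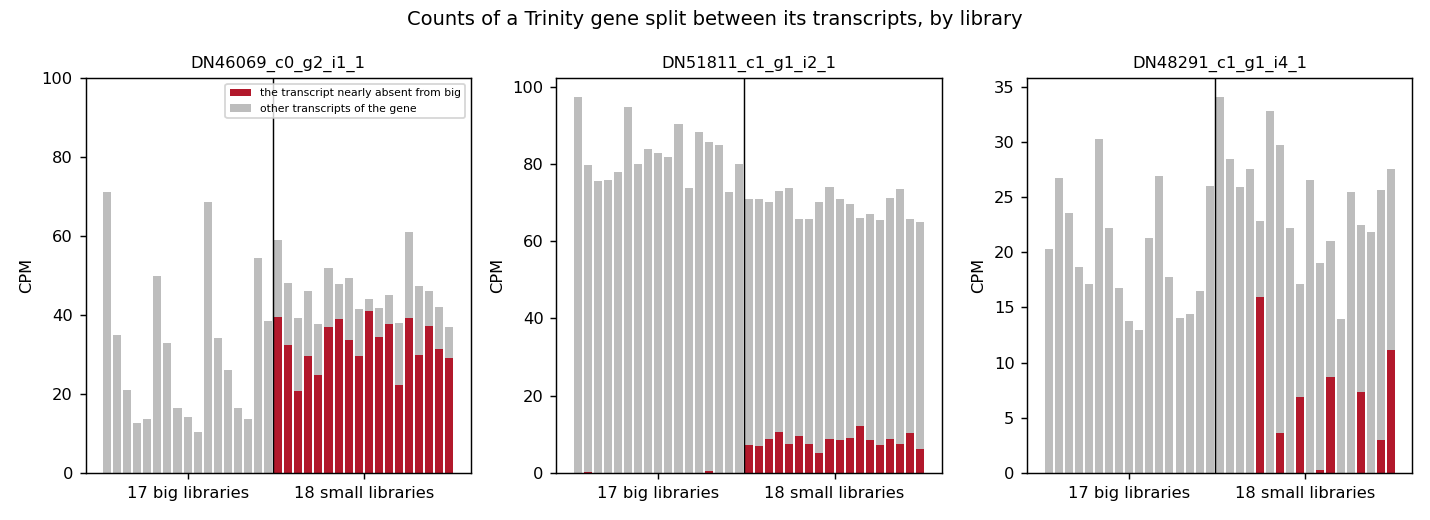
CPM of 3 Trinity genes in the 17 big libraries (left of the line) and the 18 small libraries (right of it), with 1 bar per library, in the order of oocyte number and section. Red is the transcript nearly absent from big oocytes and grey the other transcripts of its gene, stacked from 0. The whole bars of the 2 stages overlap in range over all sections. For DN46069, however, the bars of sections B, C, D and E are all lower in big oocytes. In E they are 10.3 to 13.8 CPM in big and 36.9 to 44.2 CPM in small oocytes. For DN51811 the bars are all higher in big oocytes within each section. The red part is at or near 0 in every big library.

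The remaining 3 genes had fewer counts. Both isoforms of the gene of TRINITY_DN44445_c0_g1_i1_1 had 0 counts in big oocytes, against 448 counts in small oocytes, of which 411 were from this isoform. The gene of TRINITY_DN23800_c0_g1_i2_2 had 59 counts in big and 161 counts in small oocytes, if its match to TRINITY_DN23800_c0_g1_i1_1, which ends in another digit, holds. In the cluster DN42759 the isoforms went opposite ways. TRINITY_DN42759_c1_g2_i2_1 had 6 counts in big and 116 counts in small oocytes, and TRINITY_DN42759_c1_g1_i1_1, of the same component, had 0 counts in big and 183 counts in small oocytes. TRINITY_DN42759_c1_g2_i1_1, the other isoform of the first gene, had 114 counts in big and 19 counts in small oocytes. The 2 isoforms of that gene together gave 120 counts in big and 135 counts in small oocytes. The isoforms of these 5 genes, DN54022, DN54097, DN44445, DN23800 and DN42759, were named after their values were seen.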

How the data were processed

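RNA was isolated from each section, depleted of ribosomal RNA (RiboCop) and made into libraries (SureSelect XT). The authors trimmed reads with Trimmomatic, removed remaining ribosomal reads and estimated counts with kallisto 0.43.1 on a Trinity assembly. The estimated counts were deposited as whole numbers, and 100% of the values used here were whole. The normalised tables were not used. Groups came from stage and section in the labels. CPM are counts per 1e6 estimated counts of a library.

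Section, gradient, polar and oocyte tests were fitted with edgeR 4.0.16 (R 4.3.3, robust quasi-likelihood) on the 18 small libraries with median-of-ratios scaling, terms for section and oocyte and Benjamini-Hochberg adjustment over all 30277 transcripts with a scaled total above 20 per complete oocyte. The script was tested on simulated data. The oocyte number pairs sections of the same cell: their deviations correlated at 0.0559 on average, against -0.0192 for libraries of different oocytes and sections. Sections of different oocytes of 1 female are the replicates, so p-values do not cover differences between females.

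Alternatives were TMM scaling, library totals, DESeq2 1.42.0, filters of 200 or none, no block, each oocyte left out, and other limits of the rule. Transcripts were named as the 2 with the most counts among those at 0 in big oocytes, the 2 largest called contrasts in each direction with the same sign in oocytes 5, 6 and 8, the 2 with the largest ratio between oocytes among those called, and the 2 whose genes had the most counts in big oocytes from another isoform. TRINITY_GG_37331_c2_g1_i1_1, TRINITY_GG_114056_c0_g1_i1_1, TRINITY_GG_37901_c1_g1_i1_1 and TRINITY_GG_84635_c1_g1_i1_1 fall outside this rule and were named after their values were seen. The transcripts, limits and rules were chosen with earlier results of these data known.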

Additional observations from a re-analysis of the deposited data

Results flagged for a closer look

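Of 44 sets of 4 values examined (4 oocytes in 1 section), 2 held a value far from the other 3, and chance gives about 1 in 20. In section D of small oocytes, oocyte 8 had 77 of the 78 transcripts detected, and the other 3 oocytes had 76 each, a gap of a single transcript. In section E of small oocytes TRINITY_DN47905_c0_g1_i3_1 had 6.24 CPM in oocyte 6, far above the other 3 oocytes, which had at most 0.605 CPM. This transcript had been named for its large ratio between oocytes over sections C, D and E, so the rate of 1 in 20 does not apply to it.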

How the results depend on the processing

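The limits decided how many transcripts were nearly absent from big oocytes. With 0 counts required in big oocytes there were 26, with at least 200 counts in small oocytes 28, with up to 20 counts in big oocytes 112, and with scaled counts 86, of which 74 were among the 78. Leaving out 1 oocyte gave 46 (without oocyte 6 or 8) to 102 (without oocyte 1), since the sums then ran over fewer libraries.

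All alternatives except the stricter filter gave 8 to 11 section calls in place of 10, but not all of the same transcripts: without oocyte 5, 8 of 11 were among the 10, and without oocyte 8, 7 of 9. With a scaled total above 200 only 2 of the transcripts were tested, and 0 were called in any of the 6 tests. DESeq2 gave 2 transcripts with the poles above the centre and 1 with the centre above the poles, in place of 4 and 3, against 3.43% and 2.85% of all transcripts in place of 5.05% and 4.55%. Without a filter 2 had the poles above the centre, against 2.95% of all. Leaving out 1 oocyte gave 9 to 11 section calls (10.6% to 13.3% of all transcripts), 3 to 4 vegetal (4.28% to 5.62%) and 3 animal (2.98% to 5.45%). It gave 1 to 3 with the poles above the centre (3.09% to 3.90%) and 0 to 2 with the centre above the poles (2.68% to 3.45%). Oocyte calls numbered 3 to 6 (1.37% to 3.31%), with 3 without oocyte 7. Without oocyte 8, 1 had the poles above the centre and 0 the centre above the poles. Without the replicate block 2 animal calls were made in place of 4, against 5.33% of all transcripts, and the block moved no other count by over 1.5 times (9 sections, 3 vegetal, 3 poles, 3 centre).

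Of 87 values of 10 named results under the alternatives, 71 stayed on the same side of the threshold, 16 lost the call and 0 reversed. The gradients of both GG_21224 and both DN53901 contigs and the polar contrast of TRINITY_GG_1004_c0_g1_i1_2 kept their call in all 9 alternatives each. Depth limits what can be said of big oocytes, where a count of 0 allows up to 3 counts over all 17 libraries, and this floor covers counting error only.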
